A study of Mus musculus with 5 samples.

Results

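Genes of 10 bile acid transporters were followed in mouse liver tumours, out of 22287 genes listed. They were picked by symbol: Slc10a1, Slco1b2 and Slco1a1 for uptake from blood, Abcb11, Abcb4 and Abcc2 for export into bile, and Slc51a, Slc51b, Abcc3 and Abcc4 for export back to blood. All 10 were found, each in 1 row. The group was chosen because Slc51b and Abcb11 had lower values in knockout tumours, so every difference between genotypes in these genes is given as a description. Counts of calls and the authors' deposited rates for these genes are printed beside their background and support nothing here.

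The tumours came from C57BL/6 mice given DEN, a carcinogen activated in hepatocytes, together with CCl4, a liver toxicant, over 5 months. RNA from 2 wild-type (WT) tumours and 3 of the genotype lnc-CTHCC-/- (KO), a knockout of a long non-coding RNA gene, was sequenced, and both genotypes had the same treatment. The level of lnc-CTHCC itself was not analysed here, so the genotypes are those of the labels, unchecked. The sex and age of the mice are not given in the labels, which also do not say whether each library came from its own animal. Values are FPKM, fragments scaled by gene length and by the total of the library, so that levels can be compared between genes. FPKM carries no read total, and the depth behind each value is unknown. Values of single libraries are given in the order WT 1, WT 2, then KO 1, KO 2, KO 3.

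Bile acids are made from cholesterol in hepatocytes, conjugated, pumped into the bile canaliculus and taken up again from portal blood. The nuclear receptor FXR (gene Nr1h4) senses them; it is known to raise export genes such as Abcb11, Slc51a and Slc51b and, through the repressor SHP (gene Nr0b2), to lower synthesis and uptake genes. It binds DNA with RXR, typically at IR-1 elements, a pair of inverted half-sites with 1 base between them.

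Promoters are shown here because Abcb11 and Slc51b are textbook FXR targets. Upstream sequence of 250 bases was taken from RefSeq (GRCm38.p6) for 9 of the 10 genes, in 11 windows. Each was searched for the 13 bases closest to the IR-1 motif AGGTCANTGACCT, whose letters read the same on both strands, with 12 letters compared. In the stretches below, 30 bases each and written 5′ to 3′ on the strand of the gene, the capitals mark the closest 13 bases.
Abcb11: tggactttAGGCCATTGACCTataagcaaa
Slco1b2: atttgtgtAGGACAGTGACCTgaagagata
Slc51b: cattcgtgGGGTCATTCACCCtggactggc
Slc51a: accacgtgAGGACTTTGTCCTtctcttctt

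With the same windows written so that capitals mark the letters that match the motif or stand at its N, and lower case the letters that do not, the Abcb11 window reads AGGcCATTGACCT, that of Slco1b2 AGGaCAGTGACCT, that of Slc51b gGGTCATTcACCc and that of Slc51a AGGaCtTTGtCCT. Abcb11 (chr2:69342658-69342687, minus strand) and Slco1b2 (chr6:141629422-141629451, plus strand) each had 1 mismatch, and 26 of 32851 promoter windows of all genes (0.0791%) had as few or fewer. The 13 bases of Abcb11 lie 63 to 51 bases before the gene start, and those of Slco1b2 88 to 76 bases before it. Slc51b (chr9:65422939-65422968, minus strand) and Slc51a (chr16:32487937-32487966, minus strand) had 3 mismatches, and 9.63% of all windows had as few or fewer. In GENCODE vM21 the Slc51b gene starts at 65422955, inside the printed stretch, rather than at the RefSeq start of 65422773. The other 5 genes with a window had 3 or more mismatches. These matches describe letters and show no binding.

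The Abcb11 window is given in full, since it holds one of the closest matches and Abcb11 is a gene the group was chosen for (chr2:69342617-69342866, minus strand, ending at the base before the gene start, capitals as above).
Abcb11 upstream: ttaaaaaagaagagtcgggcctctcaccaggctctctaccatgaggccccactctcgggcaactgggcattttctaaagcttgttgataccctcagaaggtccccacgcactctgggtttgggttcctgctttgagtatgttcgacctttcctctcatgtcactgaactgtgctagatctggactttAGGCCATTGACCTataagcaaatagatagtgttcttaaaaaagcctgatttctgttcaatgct

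The single half-site AGGTCA, on either strand, was in 7 of the 11 windows, 1 each of Abcb11, Abcc2, Slc10a1, Slc51a, Slc51b, Slco1a1 and Slco1b2, against 14.0% of all windows. It is part of the IR-1 motif and overlaps it. ATTGAT and ATCGAT, cores bound by HNF6 (gene Onecut1), were in none of the 11 windows on either strand, against 6.72% and 0.728% of all windows. No other form of the HNF6 site was searched. With so few windows and such low shares of all windows, nothing on HNF6 sites is read from this absence.

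The transporters differed widely in level. Slc10a1, the sodium-dependent bile salt carrier NTCP, had the highest mean over the 5 libraries at 80.4 FPKM, followed by Abcc2 at 68.1 FPKM. The order of these neighbours was not fixed, as Slc10a1 was above Abcc2 in 3 of 5 libraries. Abcc2 was above Abcc3 (39.0 FPKM) in all 5, without overlap of their ranges. Abcc3, Abcb4 (38.4 FPKM) and Abcb11 (27.9 FPKM) each overlapped with the next in order, down to Slco1b2 (20.1 FPKM). Slco1b2 stood above Abcc4 (3.8 FPKM) in all 5 libraries. Abcc4 overlapped with Slc51b (2.88 FPKM), and Slc51b with Slco1a1 (1.16 FPKM). Slc51a came last at 0.076 FPKM, below Slco1a1 in all 5 libraries.

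**Figure D1:**
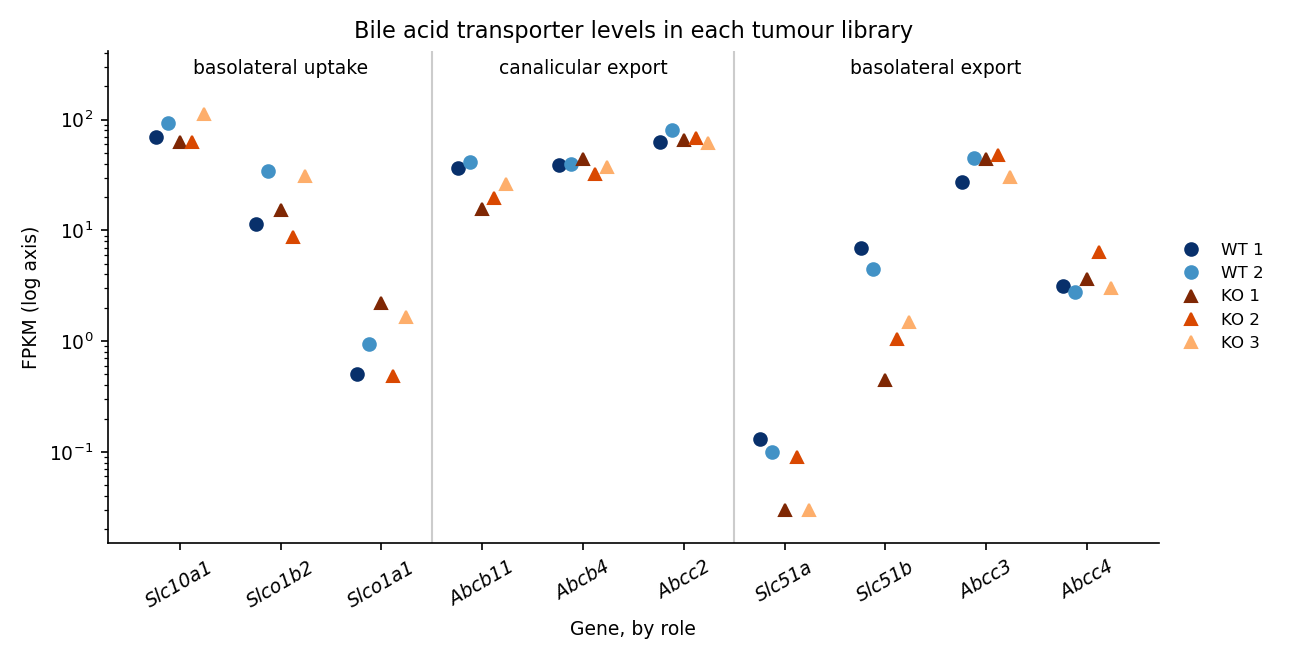
FPKM (log axis) of the 10 transporter genes, grouped by role, with 1 point for each of the 2 WT (circles) and 3 KO (triangles) tumour libraries. Slc51b and Abcb11 have all KO points below both WT points, while the uptake genes split the libraries within each genotype.

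Among exporters into bile, Abcb11 differed most between genotypes. Abcb11, the bile salt export pump that drives bile salt-dependent bile flow (ENSMUSG00000027048, chromosome 2, 69238282 to 69342616, minus strand), was at 36.6 and 41.2 FPKM in WT, against 15.7, 19.4 and 26.4 FPKM in KO. All 3 KO libraries lay below both WT libraries. In whole tumours fewer cells of a type and less RNA per cell cannot be told apart. Means were 38.9 ± 3.25 FPKM (SD, n = 2) and 20.5 ± 5.43 FPKM (SD, n = 3), so that KO was at 0.528 of WT, with a log2 difference of -0.92 (SE 0.225) on the log2(FPKM + 1) scale used for all differences. Its exons overlap those of the antisense gene Gm13613 by 136 bases, and the strand setting of the authors' counting was not stated in the labels or headers.

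The other exporters into bile overlapped between genotypes. Abcb4, the flippase that supplies phosphatidylcholine to bile (chromosome 5, 8893717 to 8959231, plus strand), measured 38.8 and 39.5 FPKM in WT, against 44.3, 32.2 and 37.2 FPKM in KO. Its log2 difference was -0.06 (SE 0.183), and 3.42% of the 50-base words of its longest coding transcript are shared with other genes, among them Abcb1a and Abcb1b. Abcc2, the conjugate export pump MRP2 that carries bilirubin glucuronides (chromosome 19, 43782192 to 43840740, plus strand), measured 63.3 and 81.2 FPKM in WT, against 65.7, 68.8 and 61.4 FPKM in KO, with a log2 difference of -0.14 (SE 0.174). The KO values of both genes lay on both sides of at least 1 WT value.

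Ratios within a library do not depend on how libraries were scaled. Abcb11 stood at 0.942 and 1.04 times Abcb4 in the WT libraries and at 0.355, 0.604 and 0.710 times Abcb4 in the KO libraries. Against Abcc2 it was at 0.578 and 0.507 in WT and at 0.239, 0.283 and 0.430 in KO. Neither ratio overlapped between genotypes, whereas Abcb4 over Abcc2 did, at 0.613 and 0.486 in WT and 0.674, 0.468 and 0.606 in KO. Abcb11 thus took 26.4% and 25.4% of the summed FPKM of these 3 genes in WT and 12.5%, 16.1% and 21.1% in KO. These ratios come from the contrast that chose Abcb11 and are no separate evidence.

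**Figure D2:**
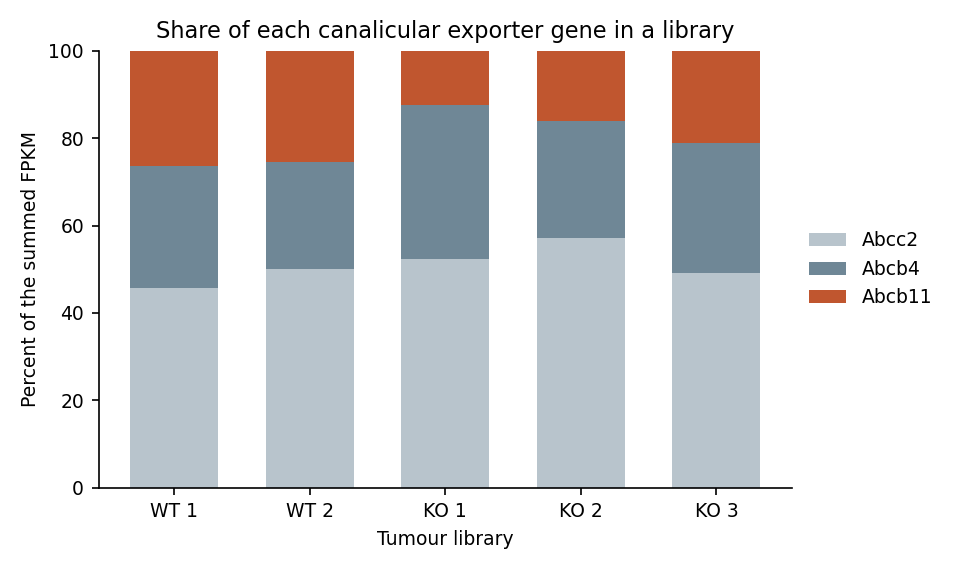
Percent of the summed FPKM of Abcb11, Abcb4 and Abcc2 taken by each gene (stacked bars), for each of the 5 tumour libraries. The Abcb11 part is above 25% in both WT libraries and between 12.5% and 21.1% in the KO libraries.

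Of the genes for export back to blood, Slc51b had the widest gap between genotypes. Slc51b encodes the beta subunit of the organic solute transporter OST, which works only together with its alpha subunit, the product of Slc51a. Slc51b (ENSMUSG00000053862, chromosome 9, 65412714 to 65422955, minus strand) was at 6.96 and 4.48 FPKM in WT, against 0.45, 1.04 and 1.49 FPKM in KO. The lowest WT library was above the highest KO library by more than the whole range of the KO libraries. Means were 5.72 ± 1.75 FPKM (SD, n = 2) and 0.993 ± 0.522 FPKM (SD, n = 3), KO being at 0.174 of WT, and the log2 difference was -1.76 (SE 0.271). With a pseudocount of 0.1 in place of 1 it was -2.51, and with 5 it was -0.83. Slc51b passed the minimum for testing (a mean of 1 FPKM over the libraries) only through WT, as its KO mean was 0.993 FPKM. Rasl12, whose exons overlap those of Slc51b by 91 bases on the other strand, was between 0 and 0.09 FPKM in the 5 libraries.

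Slc51a (chromosome 16, 32474504 to 32487879, minus strand) was near 0 in every tumour, at 0.13 and 0.10 FPKM in WT, against 0.03, 0.09 and 0.03 FPKM in KO. The genotypes were apart by no more than the last decimal listed, and the gene was below the minimum for testing (a mean of 1 FPKM over the libraries). Of the 50-base words of its longest coding transcript, 20.2% are shared with Pcyt1a, which overlaps it on the other strand and was between 7.89 and 13.4 FPKM. Slc51b was 44.8 to 53.5 times Slc51a in the WT libraries and 15, 11.6 and 49.7 times in the KO libraries.

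Abcc3 and Abcc4, pumps of the MRP family that export conjugated bile acids to blood, had higher means in KO, with overlap. Abcc3 (chromosome 11, 94343295 to 94392997, minus strand) was at 27.2 and 44.9 FPKM in WT, against 44.4, 48.0 and 30.4 FPKM in KO. Its log2 difference of 0.19 (SE 0.265) was -0.16 without WT 1, the lowest library. Abcc4 (chromosome 14, 118482692 to 118706219, minus strand) was at 3.16 and 2.76 FPKM in WT, against 3.66, 6.39 and 3.02 FPKM in KO, with a log2 difference of 0.39 (SE 0.268) that was 0.13 without KO 2. KO 2 stood highest for both genes.

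Uptake genes overlapped between genotypes and varied widely between the KO libraries. Slc10a1 (chromosome 12, 80953183 to 80968705, minus strand) was at 69.1 and 94.3 FPKM in WT, against 62.5, 63.5 and 112.8 FPKM in KO. Slco1b2, a sodium-independent carrier for unconjugated bile acids and many organic anions (chromosome 6, 141629518 to 141686646, plus strand), measured 11.4 and 34.3 FPKM in WT, against 15.2, 8.70 and 30.7 FPKM in KO. In both genes WT 2 and KO 3 were the highest libraries. The log2 differences were -0.08 (SE 0.276) for Slc10a1 and -0.29 (SE 0.524) for Slco1b2. Without WT 2 they turned to 0.14 and 0.46, and their sign also changed without KO 2 and, for Slc10a1, without KO 1. In the other direction, the difference was -1.05 for Slco1b2 without WT 1 and -0.35 for Slc10a1 without KO 3. The range within KO was 1.71 for Slco1b2 on the log2 scale.

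Slco1a1, an organic anion carrier that is known to be much higher in livers of male than of female mice, was low (chromosome 6, 141907282 to 141946962, minus strand). It was at 0.51 and 0.95 FPKM in WT, against 2.22, 0.48 and 1.65 FPKM in KO, with a log2 difference of 0.44 (SE 0.315) and overlap. Without KO 1 the Slco1a1 difference was 0.21, and without KO 2 it was 0.77. It passed the minimum for testing only through KO, as its WT mean was 0.730 FPKM. Y-linked transcripts were present in every library: Ddx3y was between 3.97 and 10.6 FPKM, Eif2s3y between 6.29 and 12.1, Uty between 1.15 and 2.51 and Kdm5d between 1.02 and 1.66 FPKM. Of 11 other male-biased liver genes tested, KO means were below WT in 9 and above in 2, and none passed in the limma fit (0 at an unadjusted p under 0.05). Without WT 2 this turned to 3 below and 8 above (median log2 difference 0.21). Of all genes tested, 61.4% had KO means above WT, and 73.7% did without WT 2. Of 16 female-biased genes 9 were tested, with KO means above WT in 5 and below in 4, and none passed in the limma fit (0 at an unadjusted p under 0.05). Among them Cyp2b9 was between 61.6 and 79.0 FPKM, while Cyp3a41b and Sult3a1 were listed at 0 in all libraries. Of the words of Slco1a1, 2.26% are shared with Slco1a4, Slco1a5 or Slco1a6.

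**Figure D3:**
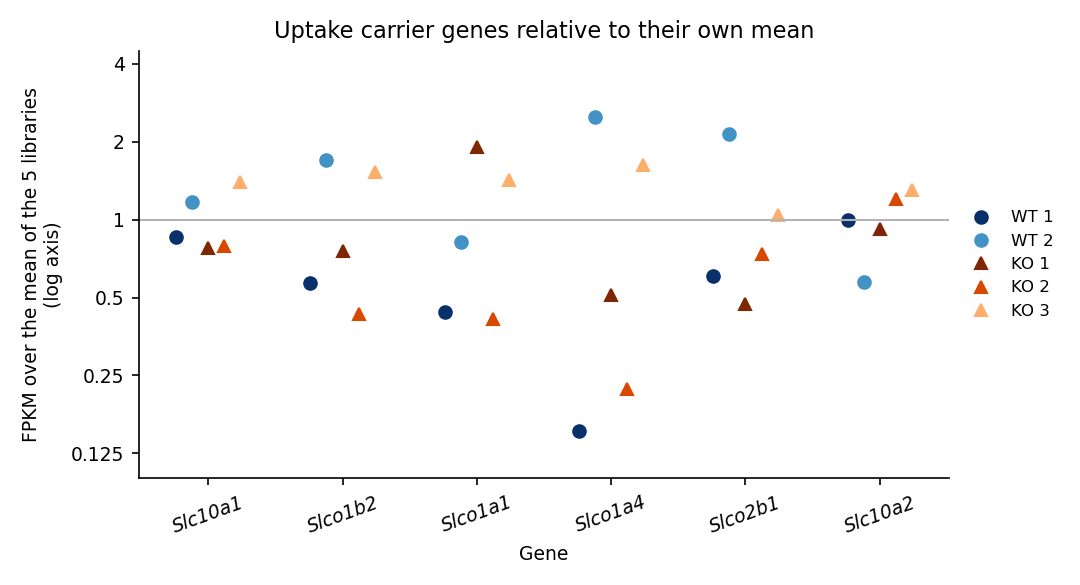
FPKM of 6 uptake carrier genes divided by the mean of the gene over the 5 libraries (log axis), with 1 point per WT (circles) or KO (triangles) library. WT 2 and KO 3 lie above the mean for Slc10a1, Slco1b2, Slco1a4 and Slco2b1, and WT 2 is the lowest library for Slc10a2.

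Among other carriers of bile acids and organic anions, Slco1a4 and Slco2b1 had the same highest libraries. Slco1a4 was at 0.45 and 7.31 FPKM in WT, against 1.5, 0.65 and 4.79 FPKM in KO, and Slco2b1 at 6.25 and 22.1 FPKM in WT, against 4.89, 7.58 and 10.8 FPKM in KO. WT 2 was the highest library for each. Slc10a2, the sodium-dependent bile acid carrier of ileum and bile duct cells, was higher than Slc51a in every library, at 9.76 and 5.61 FPKM in WT, against 8.99, 11.7 and 12.7 FPKM in KO (log2 difference 0.51, limma adjusted p = 0.999). Of 8 such carriers tested, KO means were above WT in 3 and below in 5, with a median log2 difference of -0.07. None passed in the limma fit (0 at an unadjusted p under 0.05). Without WT 1, KO means were above WT in 2 and below in 6 (median -0.43). Without WT 2 they were above in 6 and below in 2 (median 0.27).

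Across the 10 transporters, KO means were below WT in 7 and above in 3, with a median log2 difference of -0.08, beside 0.05 over all 10132 genes tested, of which 6220 (61.4%) had KO means above WT. After median-ratio rescaling that share of all genes was 50.4%. The transporters' median was between -0.23 (without WT 1) and 0.09 (without WT 2). None of the 9 transporters tested was past an adjusted p of 0.05 in the limma fit, as was the case for all but 1 gene, Onecut1 (0.00987% of genes; 327 genes had an unadjusted p under 0.05). Values of Slc51b and Abcb11 lay below WT in all KO libraries, as did 5.29% of all genes tested. Those of Slc51a, which was below the minimum for testing, did so too, as did 1007 of 16286 genes with no minimum level. No transporter lay above WT in all KO libraries, where 9.78% of genes tested did. Since the contrast chose the group, nothing is read from these counts. In the authors' deposited table Slc51b has a log2 fold change of -2.53 and a false discovery rate of 0.00601, and is among 28 genes with a lower value and a rate under 0.05 (0.126% of genes listed). In the authors' deposited table the rate of Abcb11 is 0.162, with a log2 fold change of -0.92, and that of each of the other 8 transporters is 0.9999.

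**Figure D4:**
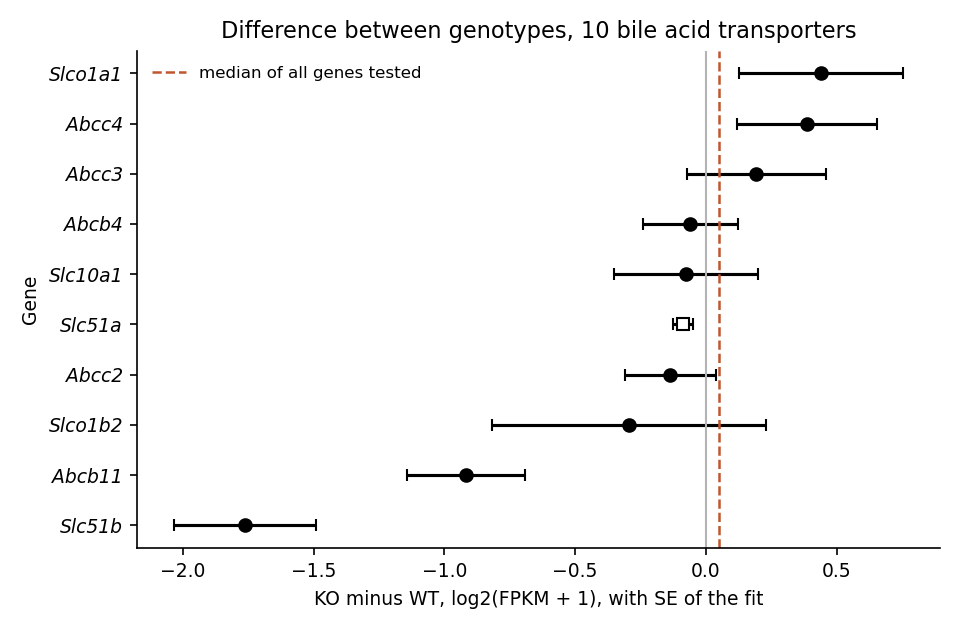
Difference of KO and WT means on the log2(FPKM + 1) scale for each transporter gene (points) with the standard error of the limma fit (bars), from 2 WT and 3 KO libraries; the dashed line is the median of all genes tested (0.05). Slc51b (-1.76) and Abcb11 (-0.92) lie apart from the other 8 genes, and the open square is Slc51a, which was below the minimum for testing.

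Genes that act on transporter genes were compared next. Nr1h4 (FXR) was at 14.9 and 34.1 FPKM in WT, against 22.4, 23.6 and 34.0 FPKM in KO, with WT 1 lowest and the genotypes overlapping (log2 difference 0.20, limma adjusted p = 0.999). Without WT 1 the Nr1h4 difference turned to -0.36, and its highest value with 1 library left out was 0.77. Nr0b2 (SHP), itself an FXR target, was at 29.3 and 10.03 FPKM in WT, against 5.03, 12.1 and 9.14 FPKM in KO (log2 difference -0.98, limma adjusted p = 0.999). Its high value was that of WT 1 alone, and without WT 1 the difference was -0.25.

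Onecut1, a homeobox factor of hepatocytes and bile ducts, was the gene of this list past the threshold, at 2.20 and 2.39 FPKM in WT, against 11.6, 9.57 and 12.04 FPKM in KO (log2 difference 1.87, limma adjusted p = 0.047). The authors' deposited table gives it a log2 fold change of 2.27 and a false discovery rate of 1.72e-20. Its limma difference did not change sign over 16 other ways of processing, at 1.14 to 2.21. The call was lost without WT 2, KO 1, KO 2 or KO 3. Over 16 other ways of processing the limma adjusted p of Onecut1 lay between 6.07e-05 and 0.516. Foxa2, a forkhead factor known to act on bile acid transporter genes, was at 8.71 and 4.97 FPKM in WT, against 18.8, 12.2 and 9.29 FPKM in KO, without overlap (log2 difference 0.87, limma adjusted p = 0.999). Of the 16 factors tested, KO means were above WT in 8 and below in 8, 1 passed as higher and none as lower.

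**Figure D5:**
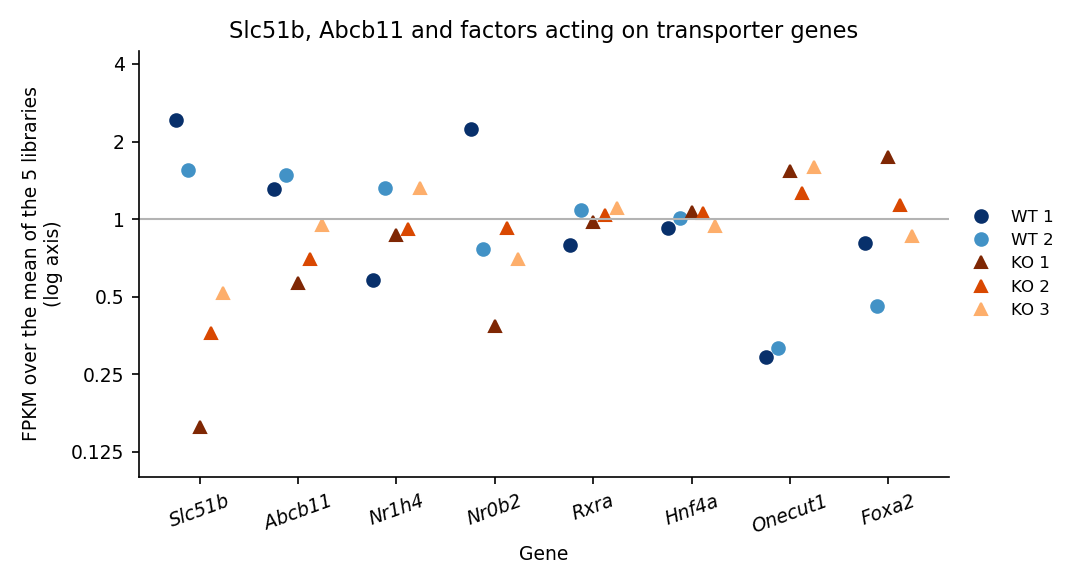
FPKM of Slc51b, Abcb11 and 6 factors divided by the mean of the gene over the 5 libraries (log axis), 1 point per WT (circles) or KO (triangles) library. Slc51b and Abcb11 are high in both WT libraries, Onecut1 is low in both, and Nr1h4 and Nr0b2 differ between the WT libraries.

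Other known FXR targets lay on both sides of 0. Apoa5, an activator of lipoprotein lipase, was at 189 and 172 FPKM in WT, against 252, 361 and 372 FPKM in KO (log2 difference 0.84, limma adjusted p = 0.893), and Pltp, the phospholipid transfer protein, had a log2 difference of 0.50. Klb, the co-receptor of FGF15 in hepatocytes, was at 5.14 and 6.17 FPKM in WT, against 3.27, 4.52 and 3.77 FPKM in KO (log2 difference -0.46, limma adjusted p = 0.999). Of 13 targets of FXR or FGF15 tested outside the transporters, KO means were above WT in 6 and below in 7, with a median of -0.06, and none passed in the limma fit (3 at an unadjusted p under 0.05).

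Genes of bile acid synthesis were as many higher as lower in KO, 8 of 16 each, with a median log2 difference of -0.02. None passed in the limma fit (0 at an unadjusted p under 0.05). This balance rested on both WT libraries. Without WT 1, 4 were higher and 12 lower (median -0.33), and without WT 2, 14 were higher and 2 lower (median 0.39). Over all genes tested, 39.7% were higher in KO without WT 1 and 73.7% without WT 2. Cyp7a1, the rate-limiting enzyme, was at 0.80 and 4.27 FPKM in WT, against 3.22, 0.61 and 3.54 FPKM in KO. WT 1 and KO 2 were its lowest libraries, as they were for Slco1b2, Slco1a1 and Slco1a4.

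Among other proteins of the canalicular membrane, Abcb1a, a multidrug exporter, was at 6.34 and 6.06 FPKM in WT, against 3.24, 3.19 and 3.98 FPKM in KO, without overlap (log2 difference -0.69, limma adjusted p = 0.999). The cholesterol exporter genes Abcg5 and Abcg8 had log2 differences of -0.34 and -0.35, with overlap. Atp8b1, the flippase that protects the canalicular membrane, was at 4.78 and 10.3 FPKM in WT, against 6.97, 6.31 and 7.22 FPKM in KO. Of 9 such genes tested, KO means were above WT in 4 and below in 5. None passed in the limma fit (1 at an unadjusted p under 0.05). Without WT 1, KO means were above WT in 1 and below in 8 (median log2 difference -0.29). Without WT 2 they were above in 6 and below in 3 (median 0.21).

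Genes that sort transporters to the canaliculus or seal it by tight junctions had higher means in KO in 15 of 20, with a median log2 difference of 0.14 beside 0.05 over all genes tested (14 of 20 after median-ratio rescaling), and none passed in the limma fit (1 at an unadjusted p under 0.05). Cldn2, a pore-forming claudin, was at 20.9 and 16.3 FPKM in WT, against 27.8, 31.5 and 34.4 FPKM in KO (log2 difference 0.72, limma adjusted p = 0.972). Tjp1, the scaffold ZO-1, had a log2 difference of 0.36 and Ceacam1, a canalicular adhesion protein, of -0.30, both without overlap.

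The genes whose values followed Slc51b and Abcb11 most closely over the 5 libraries were listed by Pearson's r of log2(FPKM + 1), as a description of 5 points with shared libraries. Predicted or clone-named genes were left out of the lists. Among all genes tested, 30 had r above 0.95 with Slc51b and 29 with Abcb11. For Slc51b the listed genes were Mrpl11, Gpd1, Hsd11b1, Prkca and Acox2, with r between 0.985 and 0.9999. Their log2 differences lay between -0.52 (Gpd1) and -0.16 (Acox2), smaller in size than that of Slc51b. For Abcb11 they were Hal, the first enzyme of histidine breakdown, Tmem106c, Mafg, Nek2 and Eef1akmt1, with r between 0.987 and 0.998. Hal was at 46.0 and 58.6 FPKM in WT, against 14.1, 18.1 and 28.3 FPKM in KO, the same order of the 5 libraries as Abcb11.

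Markers of the cell types a tumour can hold were set beside these values. Hepatocyte markers, which the tissue label calls for, were abundant, with Alb at 14.1% to 17.1% of the FPKM sum, and 9 of 12 tested had a lower mean in KO (median log2 difference -0.04). After rescaling to a common sum 7 of the 12 were lower, after median-ratio rescaling 10, and without WT 1 only 5 (median 0.06). The summed FPKM of the hepatocyte list was 161706 and 118033 in WT and 135359, 136005 and 134503 in KO. Most of that sum was Alb in every library, so it says little of the other hepatocyte markers. Bile duct cells also express Slc51b and Slc10a2. Of 18 cholangiocyte markers 12 were tested, 9 with a higher and 3 with a lower mean in KO (7 and 5 after median-ratio rescaling, 5 and 7 without WT 1). The list summed to 324 and 549 FPKM in WT and 499, 277 and 458 in KO. Most of that sum was Spp1 and Tspan8 in every library, so it says little of the other markers. Spp1 was at 146 and 418 FPKM in WT, against 327, 149 and 344 FPKM in KO. The bile duct keratin Krt19 was at 0.61 and 1.56 FPKM in WT, against 1.49, 1.81 and 1.05 FPKM in KO. The genotypes overlapped in Krt19, and Tspan8, another marker of the list, was at 142 and 92.8 FPKM in WT, against 122, 84.3 and 68.5 FPKM in KO. The part of bile duct cells in the values of Slc51b was not tested. Ileal enterocytes express Slc51a, Slc51b and Slc10a2 strongly, and their markers Fabp6, Cdx1, Cdx2, Sis and Fgf15 were listed at 0 in all libraries, 5 of the 10 on that list. Others on the list were present. Fabp2 was at 35.28 and 23.15 FPKM in WT, against 30.36, 37.5 and 45.71 FPKM in KO, and the values of Slc10a2, also on the list, are given above. The list summed to 1164 and 3283 FPKM at the lowest and highest in WT and to between 2361 and 5427 FPKM in KO, nearly all of it Apoa4, which liver also makes, and of 4 tested the KO mean was above WT in 3 and below in 1. Vil1, an actin-bundling protein of microvilli on the same list, was at 2.20 and 4.59 FPKM in WT, against 0.30, 0.04 and 0.11 FPKM in KO (limma adjusted p = 0.111). It passed the minimum for testing only through WT, as its KO mean was 0.15 FPKM.

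Of periportal hepatocyte genes, 14 of 15 tested had a lower mean in KO (median log2 difference -0.29), among them Hal and Sds, and their summed FPKM was 2460 and 3813 in WT and 2005, 2411 and 2823 in KO. Of 19 acute phase genes, 16 had a lower mean (median -0.24), with a summed FPKM of 12640 and 16897 in WT and 11402, 12587 and 12841 in KO. After median-ratio rescaling 14 periportal and 17 acute phase genes were lower. Without WT 2, only 8 of the 15 periportal genes were lower (median -0.06) and 8 of the 19 acute phase genes (median 0.04). Of all genes tested, 61.4% had a higher mean in KO, and 73.7% did without WT 2. The part of either list in the values of Slc51b and Abcb11 was not tested, and no gene of either list passed in the limma fit (4 of each at an unadjusted p under 0.05). Of pericentral genes outside the transporters, KO means were above WT in 5 and below in 3. Without WT 1 they were above in 1 and below in 7 (median -0.35). Without WT 2 they were above in 6 and below in 2 (median 0.38). Cyp2e1 was at 84.4 and 192 FPKM in WT, against 159, 58.3 and 321 FPKM in KO, highest in KO 3 and WT 2 like Slc10a1 and Slco1b2, and its part in their values was not tested.

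Markers of macrophages and Kupffer cells had a higher mean in KO in 8 of 10 tested, of endothelial cells in 7 of 8 and of stellate cells and fibroblasts in 7 of 9, and none of them passed in the limma fit (1 of each at an unadjusted p under 0.05). After median-ratio rescaling these counts were 7, 6 and 6, beside the shares of all genes given above (61.4% as deposited, 50.4% rescaled). Without WT 1 the counts were 4, 6 and 4, and 39.7% of all genes tested had a higher mean in KO. The summed FPKM of these markers overlapped between genotypes: macrophage markers were at 144 and 173 in WT and at 212, 117 and 232 in KO. Endothelial markers were at 57.6 and 53.1 in WT and at 87.7, 54.0 and 67.3 in KO, and stellate markers at 90.2 and 116 in WT and at 153, 102 and 115 in KO. Their part in the values of the transporters was not tested. Lymphocyte markers, 10 of them, were all below the minimum for testing, with a summed FPKM of 6.99 and 3.42 in WT and 5.20, 3.11 and 2.63 in KO.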

How the data were processed

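Total RNA of 5 liver tumours (2 WT, 3 KO), isolated with Trizol per the labels' protocols, was sequenced by Illumina chemistry. Tools listed in the submitters' processing notes are HISAT2, StringTie, DESeq2, limma and bcl2fastq 2.0, with the genome mm10. The authors deposited 1 table with an FPKM value per gene and library, and for each gene a log2 fold change between genotypes with its p-value and false discovery rate, as named per the file headers. Which tool gave these is not stated in the labels or headers. FPKM was listed to 2 decimals, with no read totals, so no counting interval could be given.

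From the deposited FPKM, log2(FPKM + 1) was computed, and the 10132 of 22287 genes whose FPKM averaged 1 or more were fitted with limma 3.58.1 in R 4.3.3 (two-sided, mean-variance trend, Benjamini-Hochberg adjustment, threshold 0.05). The fit was tested on simulated data. With 2 against 3 libraries an exact two-sided permutation p cannot go below 0.1. The labels do not say that libraries came from separate animals, so p-values may measure only technical spread. FPKM sums ranged from 526229 (KO 1) to 552619 (WT 1). Of 22287 listed identifiers 22253 were found in GENCODE vM21 (GRCm38), the source of gene positions. Shared 50-base words were counted among its transcripts, and promoter windows were read from RefSeq (GRCm38.p6).

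The transporters, the 19 other gene lists and the tests were chosen with earlier results of these data known. Beside the transporters, genes were named where they passed the threshold or were among the 4 smallest unadjusted p of their list, with a fixed set (Nr1h4, Nr0b2, Onecut1, Cyp7a1, Slc10a2, Slco1a4, Atp8b1 and the Y-linked genes) and the 5 genes closest in Pearson's r to Slc51b and to Abcb11, predicted or clone-named genes left out. Marker genes Alb, Krt19 and Spp1 and those listed at 0 were named after their values were seen. The 16 alternatives changed the pseudocount, the minimum level, the scaling, the limma options, the replicate block or left out 1 library.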

Additional observations from a re-analysis of the deposited data

How the results depend on the processing

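The number of genes past the threshold was 1 with a pseudocount of 0.1 and without the trend. It was 0 with a pseudocount of 5, with no minimum level, with a minimum mean of 5 FPKM, and after each of 4 rescalings (common sum, common sum without Alb, median ratio and quantile). It was 3 with robust limma moderation and between 0 and 17 when 1 library was left out, the highest without WT 1. With the replicate number as a replicate block it was 62. KO 3 shares its number with no WT library, so that its value takes no part in the blocked differences, which equal those without KO 3, where 0 genes passed (286 at an unadjusted p under 0.05). Deviations of same-numbered libraries correlated at 0.0884 for number 1 and -0.241 for number 2, so the numbers were not taken as a pairing.

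The median log2 difference of the transporters was between -0.228 (without WT 1) and 0.0933 (without WT 2) when 1 library was left out, beside -0.07 and 0.16 for the genes tested as a whole. No transporter changed sign under another pseudocount, minimum, scaling or the block. With 1 library left out, Abcb4 (0.05 without KO 2), Abcc2 (0.04 without WT 2), Abcc3, Slc10a1 and Slco1b2 did. Slc51b ranged from -2.03 to -1.49 and Abcb11 from -1.11 to -0.75 with 1 library left out. Slc51a was between -0.54 and -0.02, moving with the pseudocount. Abcc2 was at -0.31 without WT 1. Depth was unknown, so no counting error could be set beside low values such as those of Slc51a.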
